A study of Homo sapiens with 12 samples.

Results

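The E2F transcription factors E2F1 to E2F8 and the pocket proteins RB1 and RBL1 were followed, probe by probe, in H358 human lung carcinoma cells on Agilent one-color whole-genome microarrays. These are 10 of the 16557 genes named on the array. They were read by the gene probes whose RefSeq accession mapped to 1 of the 10 symbols, 17 of 41000 gene probes, and all 17 were among the 24330 probes kept by the filter on dim signals. Both conditions came from the H358/Tet-On/SRSF2 line, a single inducible clone in which a Tet-responsive promoter drives the splicing factor SRSF2. The SRSF2 over-expression condition (6 arrays, called SRSF2-labelled here) had received 1 µg/mL doxycycline for 24 hours. The control condition (6 arrays) was collected at 24 hours, and no doxycycline dose is given for it. The arrays lay on 3 slides, each with 2 arrays of each condition. Each condition had 3 cRNA labelings on 2 arrays apiece, and which arrays share a labeling is not given in the sources used here. The 6 arrays of a condition are therefore not 6 independent samples, and p-values over them rest in part on technical spread and can be too small.

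E2F factors bind DNA at the promoters of genes needed for DNA replication. E2F1, E2F2 and E2F3 activate these genes when cells enter S phase, E2F4 and E2F5 act mainly as repressors bound to pocket proteins, E2F6 represses within a Polycomb-type complex and does not bind pocket proteins, and E2F7 and E2F8 are atypical repressors that work without a DP partner. RB1 and RBL1 (p107) hold E2F factors in check until cyclin-dependent kinases phosphorylate them. E2F1 can also drive apoptosis genes, and it is known to act together with SRSF2 in lung tumour cells.

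The array data gave similar depth in both conditions. The share of gene spots well above background was 54.2% to 67.8% for controls and 55.2% to 68.0% for the SRSF2-labelled arrays. The SRSF2 probe went against the label: its log2 signal was 3.74 to 4.03 for controls but 2.29 to 2.56 for the SRSF2-labelled arrays, 2.75-fold lower (limma adjusted p = 1.7e-09). Whether that probe detects the transgene was not tested, and the direction of every change here rests on the labels. As a check of the cell type, 14 of 15 lung epithelial marker probes and 4 of 14 probes for blood, vessel and stromal markers passed the filter, and 8 of those 14 were well above background on no array. Over the 12 epithelial probes with a value on every array, the log2 of the summed signal ranged from 9.21 to 9.37 for controls and from 8.91 to 9.08 for SRSF2-labelled arrays. That sum weighs bright probes most, above all KRT19 (control mean 8.68). It leaves out bright KRT8 (6.07) and KRT18 (6.43 and 7.66) probes that lack a value on some array. Of the 14 epithelial probes kept, 5 were higher (35.7%, against 29.7% of all probes kept), 2 lower (14.3%, against 28.0%) and 7 not called. The higher calls were led by the lung protease NAPSA (1.55-fold on 1 of 2 probes) and the lung lineage factor NKX2-1 (1.34-fold and 1.26-fold). The other higher calls were EPCAM (1.15-fold) and the simple-epithelium keratin KRT8 (1.13-fold on 1 of 2 probes). The lower calls were the simple-epithelium keratins KRT7 (2.50-fold) and KRT19 (1.42-fold), and KRT18 was not called on any probe. The sum for the other cell types ranged from -1.03 to -0.68 and from -1.002 to -0.66, with 1 VWF probe 1.24-fold higher and PECAM1 1.38-fold lower, both endothelial genes. The part of these differences in the results below was not tested.

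Most of the E2F and RB family probes moved, and all by less than 2-fold. Of the 17 probes, 11 were higher on the SRSF2-labelled arrays at an adjusted p of at most 0.05 (limma, 6 arrays against 6), where 29.7% of all probes kept were higher. A further 3 probes were lower, where 28.0% of all probes kept were lower, and 3 were not called. No member passed the additional limit of a 2-fold change, which 3.68% of all probes kept passed upward and 3.31% downward. The median log2 fold change of the 17 probes was 0.41, against 0.011 for all probes kept. E2F6 alone supplied 4 of the 11 higher probes, so by gene 7 of the 10 members had only higher calls (E2F2, E2F3, E2F5, E2F6, E2F8, RB1 and RBL1) and 3 had only lower calls (E2F1, E2F4 and E2F7). RB1 counts as higher through a dim probe alone, and its bright probe was not called (-0.04). The dim RBL1 probe among the 11 passed the filter through the SRSF2-labelled arrays alone and lost its call under 20 of 29 alternative settings. The share of all genes with such calls was not computed, and a gene with more probes has more chances of a call. Scaled on 6 spike-in control probes instead, which moved the median of all probes kept from 0.011 to 0.20, 6 calls were lost with their sign kept: E2F1 (-0.10), E2F7 (-0.13), the lower E2F4 probe (-0.28), E2F3 (0.50), E2F5 (0.61) and RBL1 A_23_P28733 (0.44). The uncalled E2F4 and RB1 probes turned from slightly negative to positive. In bulk RNA, a change in the share of cells that carry a transcript cannot be told apart from a change in each cell.

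**Figure D1:**
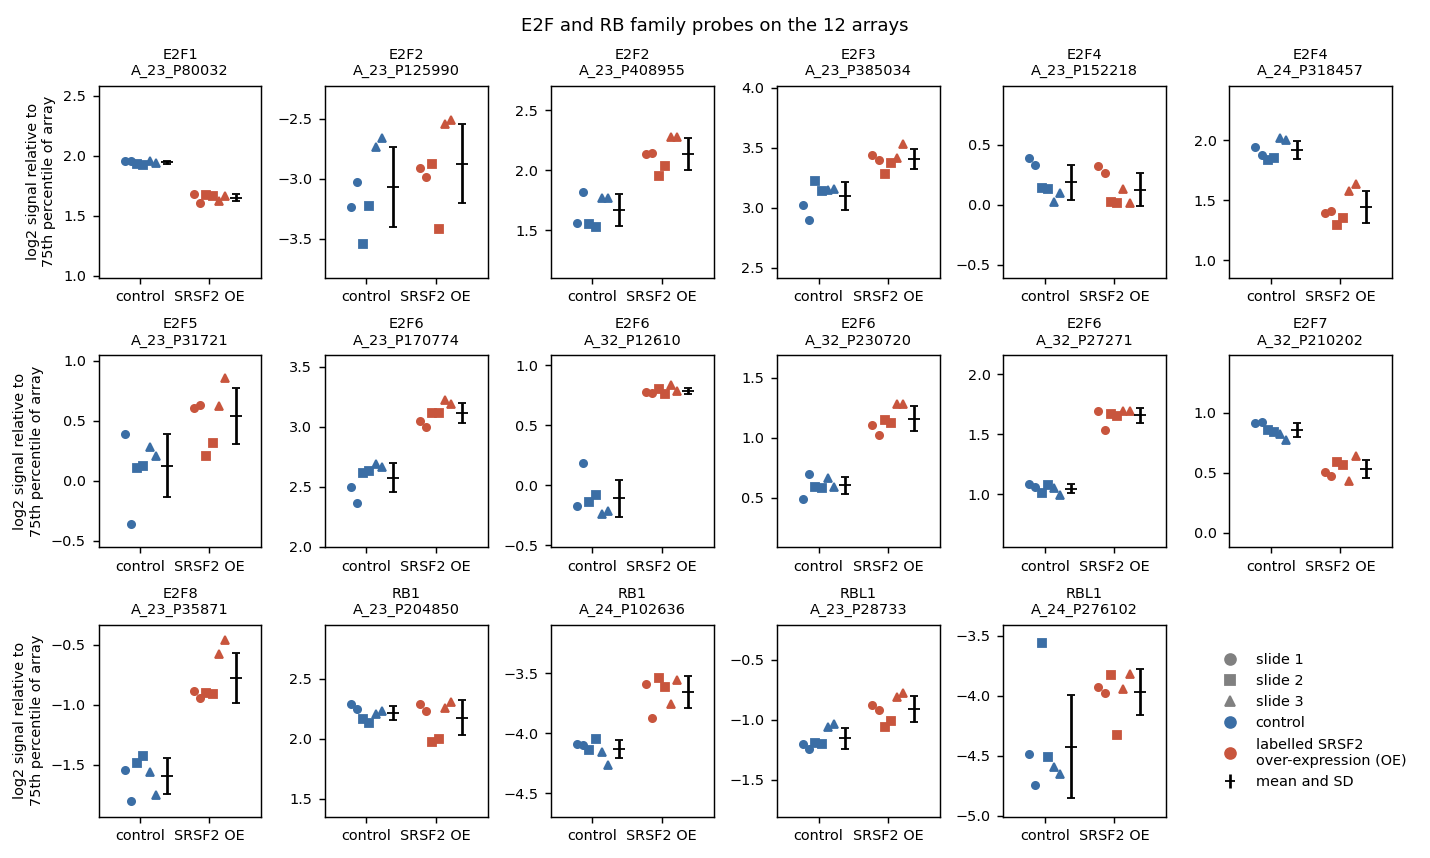
Log2 signal of each of the 17 probes (vertical axis, after subtracting the 75th percentile of each array) on the 6 control and the 6 SRSF2 over-expression arrays, with the slide as the marker shape and bars for the mean and SD. E2F1 fell from about 1.95 to 1.65 with little spread, and the dim RBL1 probe has 1 control array at -3.56 above all the others of its group.

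The groups did not overlap for 11 of the 17 probes. All 6 SRSF2-labelled arrays lay above all 6 controls for 8 probes, where 21.2% of all probes kept did so, and all 6 lay below for 3 probes, where 18.9% did so. The 2 arrays of a condition on each slide were also averaged into 1 value, leaving 3 values against 3. There limma called 9493 of the 24330 probes kept, against 14042 with the main processing. Of the 17 member probes it called 8 higher and 3 lower. The adjusted p of these 11 then ranged from 7.0e-04 (E2F6 A_32_P12610) to 0.046 (E2F3), and the calls of E2F5 and of both RBL1 probes were lost. On both conditions, 16 of the 17 probes were well above background on at least 5 arrays. The dim RBL1 probe passed the filter on the SRSF2-labelled arrays alone.

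Among the activators, E2F1 was lower while E2F2 and E2F3 were higher. The log2 signal of E2F1, given like all levels here after subtracting the 75th percentile of the array's signals, ran from 1.92 through a median of 1.95 to 1.96 on the control arrays and from 1.61 through 1.66 to 1.68 on the SRSF2-labelled arrays. Every SRSF2-labelled array was thus below every control. The log2 fold change was -0.29 ± 0.04 (SE, n = 6 and 6 arrays), a 1.22-fold lower level (limma adjusted p = 2.0e-05, and 0.024 with the arrays of a slide and condition averaged). This probe is printed 10 times on each array, the within-array SD over the 10 spots was 0.048 to 0.090, and the difference was negative at 10 of 10 spots, from -0.34 to -0.24. These spots read the same RNA on each array, so they describe the measurement and add no samples. Within slides 1, 2 and 3 the difference was -0.31, -0.26 and -0.31.

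E2F2, a close relative of E2F1, was read by a bright and a dim probe. On the bright probe (A_23_P408955) the log2 signal ran from 1.53 through 1.66 to 1.82 on the controls and from 1.95 through 2.14 to 2.28 on the SRSF2-labelled arrays. The groups were separate on this probe, with a log2 fold change of 0.47 ± 0.08 (SE; 1.39-fold, adjusted p = 1.7e-04) and differences of 0.45, 0.45 and 0.51 within the 3 slides. The dim probe (A_23_P125990) ran from -3.54 through -3.13 to -2.66 and from -3.42 through -2.90 to -2.51, so the groups overlapped. Its log2 fold change was 0.20, with a 95% interval from -0.18 to 0.58 (adjusted p = 0.36). Compared within arrays, the bright probe changed by 0.27 more than the dim one, with a 95% interval from -0.0017 to 0.55. With the slide as a block this difference passed the threshold (limma adjusted p = 0.025), as it did in 5 other settings. The dim probe was well above background on 5 of 6 control arrays.

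E2F3, which is required for the G1/S transition in many cells, ran from 2.90 through 3.14 to 3.22 on the controls and from 3.28 through 3.40 to 3.53 on the SRSF2-labelled arrays. The groups were separated by 0.06 on the log2 scale. The log2 fold change was 0.31 ± 0.06 (SE; 1.24-fold, adjusted p = 0.0010), with 0.46, 0.14 and 0.32 within the slides. Taken within each array, which removes any scaling of the array, E2F2 changed by 0.76 (95% interval 0.59 to 0.93) more than E2F1, and E2F3 by 0.60 (0.45 to 0.75) more than E2F1. Between E2F3 and E2F2 the interval of the difference, -0.35 to 0.03, contained 0, but the difference passed the threshold with the slide as a block (-0.16, limma adjusted p = 0.045) and in 4 other settings.

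The promoters of these activators are shown because each of the 3 genes, 1 lower and 2 higher, holds an E2F-type word near its start site. The windows are from RefSeq (GRCh38.p14) and run from 250 bases before to 50 after a start site, on the strand of the gene. They were searched on both strands for TTTCCCGC, TTTCGCGC, TTTGCCGC and TTTGGCGC, the spelled-out E2F consensus, and capitals mark the matches. At least 1 of these words is in 3.32% of the 35116 promoter windows of the table.
E2F1, chr20:33686336-33686635, minus strand: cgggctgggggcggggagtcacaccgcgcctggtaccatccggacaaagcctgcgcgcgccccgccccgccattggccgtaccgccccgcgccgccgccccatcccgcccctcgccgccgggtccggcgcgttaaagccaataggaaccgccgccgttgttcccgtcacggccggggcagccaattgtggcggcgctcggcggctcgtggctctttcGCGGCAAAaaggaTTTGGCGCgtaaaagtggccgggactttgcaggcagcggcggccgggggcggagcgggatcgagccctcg
E2F2, chr1:23531184-23531483, minus strand: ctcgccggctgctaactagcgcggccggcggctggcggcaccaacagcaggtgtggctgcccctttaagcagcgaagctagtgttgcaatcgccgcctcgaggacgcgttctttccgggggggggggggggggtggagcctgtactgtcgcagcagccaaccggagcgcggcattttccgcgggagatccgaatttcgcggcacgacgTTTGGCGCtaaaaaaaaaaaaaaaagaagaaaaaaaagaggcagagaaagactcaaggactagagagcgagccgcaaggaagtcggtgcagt
E2F3, chr6:20401629-20401928, plus strand: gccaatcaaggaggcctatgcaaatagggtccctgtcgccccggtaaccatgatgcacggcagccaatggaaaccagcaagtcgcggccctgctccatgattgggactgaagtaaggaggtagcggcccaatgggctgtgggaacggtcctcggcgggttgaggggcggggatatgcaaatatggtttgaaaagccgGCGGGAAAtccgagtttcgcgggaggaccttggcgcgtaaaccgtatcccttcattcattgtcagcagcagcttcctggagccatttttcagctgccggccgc
The E2F1 window held 2 words, which began at positions -33 and -20 from the start site and did not overlap. E2F2 held 1 at -42 and E2F3 held 1 at -53. The E2F3 window also held TTTGAA, the CHR element of late cell cycle genes, which 15.2% of windows hold.

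The repressors that bind pocket proteins did not move alike. E2F4, the main E2F of quiescent cells, had a pair of probes for the same RefSeq transcript that differed. On A_24_P318457 the log2 signal ran from 1.83 through 1.91 to 2.02 on the controls and from 1.29 through 1.40 to 1.63 on the SRSF2-labelled arrays. Every array of that condition was below every control, with a log2 fold change of -0.48 ± 0.07 (SE; 1.39-fold lower, adjusted p = 4.8e-05), and -0.50, -0.52 and -0.40 within the slides. On A_23_P152218 the values ran from 0.02 through 0.14 to 0.39 and from 0.01 through 0.08 to 0.32. These groups overlapped, and the log2 fold change was -0.06 with a 95% interval from -0.23 to 0.11 (adjusted p = 0.55). Compared within arrays, the pair of E2F4 probes differed in their change by -0.42 (95% interval -0.64 to -0.19, limma, unadjusted as are all intervals between probes). The position of each probe on the transcript was not analysed here.

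E2F5, the other E2F of this class, ran from -0.36 through 0.16 to 0.39 on the controls and from 0.21 through 0.61 to 0.85 on the SRSF2-labelled arrays. The groups overlapped, with slide 2 holding the 2 lowest arrays of the latter group. The log2 fold change was 0.41 ± 0.13 (SE; 1.33-fold, adjusted p = 0.018), and within the slides it was 0.60, 0.15 and 0.49. The call was lost when the arrays that share a slide and condition were averaged into 1 value (adjusted p = 0.058), without slide 1 (0.32, adjusted p = 0.085) and without slide 3 (0.37, adjusted p = 0.11). Within arrays, E2F5 changed more than E2F4 by 0.47 (95% interval 0.18 to 0.77) against one E2F4 probe and by 0.89 (0.67 to 1.11) against the other.

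E2F6, the repressor that does not bind pocket proteins, was higher on all 4 of its probes, which carry the same RefSeq transcript. On A_32_P12610 the log2 signal ran from -0.24 through -0.16 to 0.19 on the controls and from 0.76 through 0.78 to 0.83 on the SRSF2-labelled arrays, a log2 fold change of 0.90 ± 0.07 (SE; 1.86-fold, adjusted p = 2.0e-07). The lowest array of the latter group stood 0.57 above the highest control. On A_32_P27271 the values ran from 1.00 through 1.06 to 1.09 and from 1.53 through 1.68 to 1.70, a log2 fold change of 0.61 ± 0.04 (SE; 1.53-fold, adjusted p = 1.3e-07). The remaining probes gave 0.56 ± 0.06 (A_32_P230720, 1.47-fold, adjusted p = 3.6e-06) and 0.54 ± 0.06 (A_23_P170774, 1.45-fold, adjusted p = 1.2e-05). No control array reached the level of any SRSF2-labelled array on these 4 probes.

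The 4 E2F6 probes agreed in direction within each slide, from 0.47 to 1.04. They did not agree in size: A_32_P12610 rose by 0.36 (95% interval 0.13 to 0.58) more than A_23_P170774 (0.25 without slide 3, no longer past the threshold), and A_32_P230720 and A_32_P27271 rose by 0.34 (0.19 to 0.49) and 0.29 (0.14 to 0.44) less than it. The last of these differences no longer passed with normexp background correction (-0.15, limma adjusted p = 0.17), without background subtraction or without slide 3. The intervals among the other 3 contained 0. The E2F6 window of the promoter table held none of the 4 E2F words.

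The atypical repressors moved in opposite directions. E2F7 ran from 0.78 through 0.85 to 0.93 on the controls and from 0.44 through 0.54 to 0.64 on the SRSF2-labelled arrays. All arrays of the latter group were below the controls, with a log2 fold change of -0.32 ± 0.05 (SE; 1.25-fold lower, adjusted p = 9.8e-05), and -0.43, -0.27 and -0.27 within the slides. E2F8 ran from -1.81 through -1.55 to -1.43 and from -0.94 through -0.89 to -0.46. It was higher on every SRSF2-labelled array, with a log2 fold change of 0.82 ± 0.10 (SE; 1.76-fold, adjusted p = 1.6e-05). Within slides 1, 2 and 3 the E2F8 difference was 0.76, 0.55 and 1.14, so slide 3 held the largest and its 2 SRSF2-labelled arrays (-0.58 and -0.46) were the highest of all 12. Compared within arrays, E2F8 changed by 1.14 (95% interval 0.93 to 1.35) more than E2F7, the widest gap among the 7 within-role pairs that were compared.

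**Figure D2:**
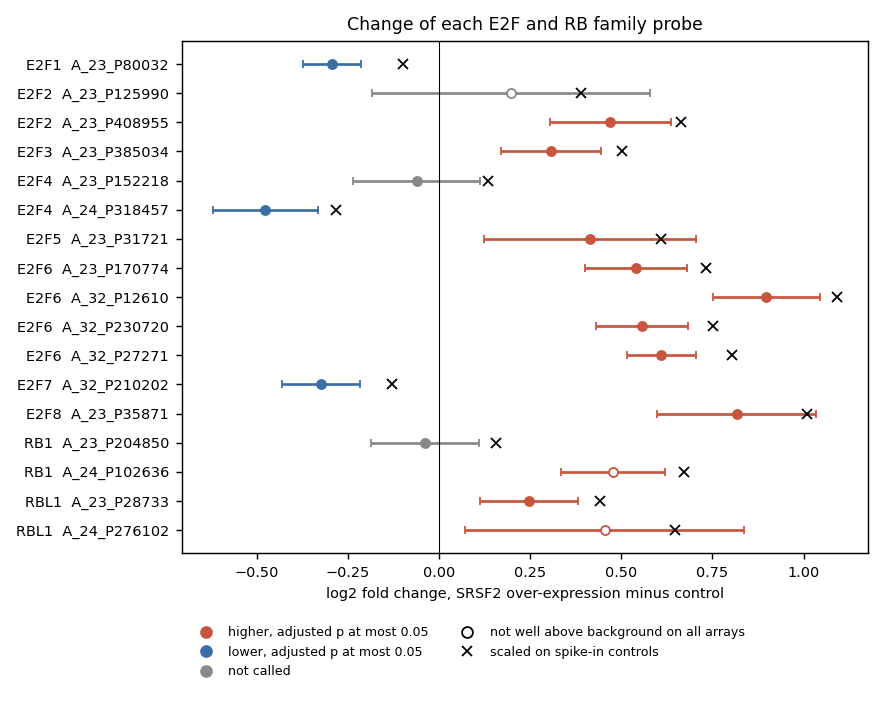
Log2 fold change of each probe (horizontal axis, SRSF2 over-expression minus control) with its 95% interval, colored by call, with open points for probes that missed the background limit on some array and crosses for values scaled on spike-in controls. The 4 E2F6 probes and E2F8 stand at the upper end (0.54 to 0.90), and E2F1, E2F7 and 1 E2F4 probe stand below 0.

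The pocket proteins gave a small or probe-dependent signal. The RB1 probe with 10 spots on each array (A_23_P204850) ran from 2.13 through 2.22 to 2.29 on the controls and from 1.98 through 2.24 to 2.30 on the SRSF2-labelled arrays. These ranges overlapped, and the log2 fold change was -0.04 with a 95% interval from -0.18 to 0.11 (adjusted p = 0.66). The 2 lowest arrays, 1.98 and 2.00, were both from slide 2, where the difference was -0.16, against -0.01 and 0.06 on slides 1 and 3. The dim RB1 probe (A_24_P102636) ran from -4.27 through -4.12 to -4.05 and from -3.87 through -3.61 to -3.54, a log2 fold change of 0.48 ± 0.07 (SE; 1.39-fold, adjusted p = 4.0e-05). It was well above background on 5 of 6 control arrays and on all 6 others. The pair of RB1 probes differed in their change by 0.52 (95% interval 0.31 to 0.72), but by 0.17 with the normexp background correction, which no longer passed the threshold (limma adjusted p = 0.064). The change of the dim probe itself was 0.15 with normexp and 0.25 without background subtraction, still called in both.

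RBL1 (p107), itself an E2F-regulated gene, was read by a brighter and a dim probe. A_23_P28733 ran from -1.24 through -1.20 to -1.03 on the controls and from -1.06 through -0.90 to -0.78 on the SRSF2-labelled arrays, with a log2 fold change of 0.25 ± 0.06 (SE; 1.19-fold, adjusted p = 0.0042). The highest control, from slide 3, passed the lowest SRSF2-labelled array, from slide 2, and within slides 1, 2 and 3 the difference was 0.32, 0.16 and 0.25. This call was lost with normexp (0.13, adjusted p = 0.065), without background subtraction (0.18, adjusted p = 0.074), with 2 arrays averaged into 1 value (adjusted p = 0.10) and without slide 1 (0.21, adjusted p = 0.062). The dim probe A_24_P276102 ran from -4.74 through -4.55 to -3.56 and from -4.33 through -3.93 to -3.81. It gave 0.45 ± 0.18 (SE; adjusted p = 0.042), was well above background on 4 of 6 control and 5 of 6 SRSF2-labelled arrays, and lost its call under 20 of 29 alternative settings. Within slide 2 its difference was -0.04, and without slide 2 it was 0.70.

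The RBL1 promoter is shown beside those of the activators, since it holds a pair of E2F words close together.
RBL1, chr20:37095948-37096247, minus strand: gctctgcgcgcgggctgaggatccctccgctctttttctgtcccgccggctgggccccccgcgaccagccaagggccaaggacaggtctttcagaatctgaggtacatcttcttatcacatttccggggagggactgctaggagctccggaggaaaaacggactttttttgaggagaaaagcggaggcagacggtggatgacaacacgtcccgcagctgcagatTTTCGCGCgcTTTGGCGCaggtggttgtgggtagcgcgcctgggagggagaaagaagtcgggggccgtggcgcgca
Its 2 words began at positions -26 and -16. The windows of E2F4, E2F6 and E2F7 and a second E2F3 window held none. The start site of the RB1 window lies 172699 bases inside the gene, so nothing is read from it about the first exon of RB1.

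**Figure D3:**
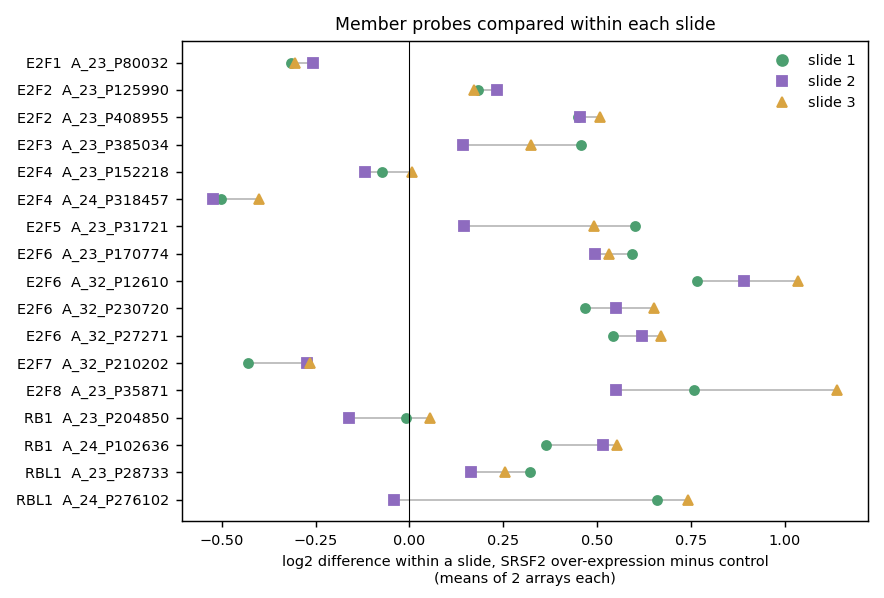
Difference between the conditions within each slide (horizontal axis, log2, mean of 2 SRSF2-labelled arrays minus mean of 2 controls) for the 17 probes, with a marker for each slide. The 3 slides lie on the same side of 0 for 14 probes, and on both sides for E2F4 A_23_P152218, RB1 A_23_P204850 and RBL1 A_24_P276102.

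Among the partners of these factors the calls were close in share to those of all probes kept. Of 12 probes for DP proteins and subunits of the DREAM and MuvB complexes, which hold E2F4 or E2F5 on cell cycle promoters, 4 were higher (33.3%, against 29.7% of all probes kept) and 3 lower (25%, against 28.0%), with a median log2 fold change of 6.4e-05 against 0.011. LIN54, the DNA-binding MuvB subunit, had a mean log2 signal of -4.59 on the controls, where its probe was well above background on 2 of 6 arrays, and of -3.11 on the SRSF2-labelled arrays. That probe passed the filter through the latter group alone. RBL2 (p130), the third pocket protein, rose by 0.44 (adjusted p = 0.0052) on 1 of 2 probes. The histone-binding subunit RBBP4 rose on its dim probe (0.70, control mean -3.81) and fell on its brighter one (-0.47, control mean 3.03). LIN9 (-0.25) and LIN37 (-0.23) were the other lower calls. With the arrays of a slide and condition averaged, 4 of the 12 probes were higher and 1 lower, and with spike-in scaling 4 and 0. Over all 24330 probes kept these settings called 9493 and 6686, against 14042 with the main processing.

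Of 17 probes for proteins found in complexes with E2F6, 9 were higher (52.9%, against 29.7% of all probes kept) and 5 lower (29.4%, against 28.0%), with a median log2 fold change of 0.25. With the arrays of a slide and condition averaged, 5 were higher and 4 lower, and with spike-in scaling 6 and 0. These settings called 9493 and 6686 of the 24330 probes kept, against 14042 with the main processing. MAX, the bHLH partner of MGA, rose on 2 probes (1.32, which is 2.50-fold, and 0.79) and fell on the third (-0.49, adjusted p = 3.6e-07). The 2 MAX probes that rose were dimmer (control means -3.07 and -1.81) than the one that fell (3.17). RNF2, a Polycomb ubiquitin ligase, rose by 0.68 (adjusted p = 2.4e-06) on 1 of 2 probes. L3MBTL2 fell on both probes (-0.72 and -0.55), and PCGF6, another Polycomb subunit, fell by 0.53.

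Upstream of RB1, 11 of 22 probes for cyclins, cyclin-dependent kinases and their inhibitors were higher (50%, against 29.7% of all probes kept) and 3 were lower (13.6%, against 28.0%), with a median log2 fold change of 0.17. These counts were 6 and 0 with the arrays of a slide and condition averaged, and 5 and 0 with spike-in scaling. Those settings called 9493 and 6686 of the 24330 probes kept, against 14042 with the main processing. CDK2, the S-phase kinase, was 1.94-fold higher (0.96, adjusted p = 9.7e-04), its partner CCNE2 rose by 0.68 (adjusted p = 0.0045), and the CDK4/6 inhibitor CDKN2C (p18) rose by 0.59 (adjusted p = 2.3e-06). The CDK2 and CCNE2 probes were dim (control means -3.16 and -3.29), and the CDKN2C probe was brighter (1.42). The lower calls were 1 of 2 CDK6 probes (-0.34), the inhibitor CDKN1C (-0.29) and cyclin CCNE1 (-0.24). The other CDK6 probe was higher (0.33).

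The E2F target genes of S phase held both lower and higher genes. Of 51 probes for 39 such genes, 20 were lower (39.2%), 14 higher (27.5%) and 17 were not called, beside 28.0% lower and 29.7% higher over all probes kept, and the list median was -0.04. The lowest were the replication genes CDC45 (-0.84 ± 0.07, SE, adjusted p = 6.3e-07), a subunit of the replicative helicase, GINS2 (-0.80 ± 0.04, adjusted p = 8.9e-09), a GINS subunit of the same helicase, and MCM3 (-0.74 ± 0.05, adjusted p = 4.4e-08), part of its ring. The highest were the ubiquitin ligase subunit SKP2 (1.37 ± 0.06, 2.58-fold, adjusted p = 3.0e-09), the uracil glycosylase UNG (1.10 ± 0.16, 2.14-fold, adjusted p = 7.9e-05) and the ribonucleotide reductase subunit RRM2 (0.81 ± 0.11, adjusted p = 3.8e-05, and 0.26 on its second probe, adjusted p = 0.016). With arrays scaled on spike-in controls, which moves the median of all probes to 0.20, 2 target probes were lower and 9 higher. That scaling called 6686 of the 24330 probes kept, against 14042 with the main processing.

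Among 15 probes for apoptosis genes known as E2F1 targets, 8 were higher (53.3%, against 29.7% of all probes kept) and 3 lower (20%, against 28.0%), with a median log2 fold change of 0.14. These counts were 5 and 3 with the arrays of a slide and condition averaged, and 3 and 0 with spike-in scaling. Those settings called 9493 and 6686 of the 24330 probes kept, against 14042 with the main processing. BCL2L11 (BIM), a pro-apoptotic BH3 protein, was 3.21-fold and 3.17-fold higher on 2 probes (1.68 and 1.67, adjusted p = 9.0e-10 and 1.4e-06) and 1.20-fold higher on the third. Those 2 probes were dim (control means -2.90 and -2.71), and the third was brighter (1.41). A further BCL2L11 probe did not pass the filter. PMAIP1 (NOXA) rose by 0.48 (adjusted p = 6.2e-04). BID fell by 0.64 and 0.52 on its probes and SIVA1 fell by 0.63. Of 6 probes for apoptosis genes linked to both E2F1 and SRSF2 splicing, 2 were higher (33.3%, against 29.7% of all probes kept). Another 2 were lower (33.3%, against 28.0%). CASP8 was 2.34-fold higher on 1 of 2 probes (1.22, adjusted p = 4.0e-06). That probe was the dimmer one (control mean -1.32), and the brighter one (2.78) was not called (-0.16). CFLAR rose by 0.45, and BCL2L1 (-0.39) and 1 of 2 CASP9 probes (-0.19) were lower. With spike-in scaling 2 were higher and 0 lower, and with the arrays of a slide and condition averaged 1 was higher.

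**Figure D4:**
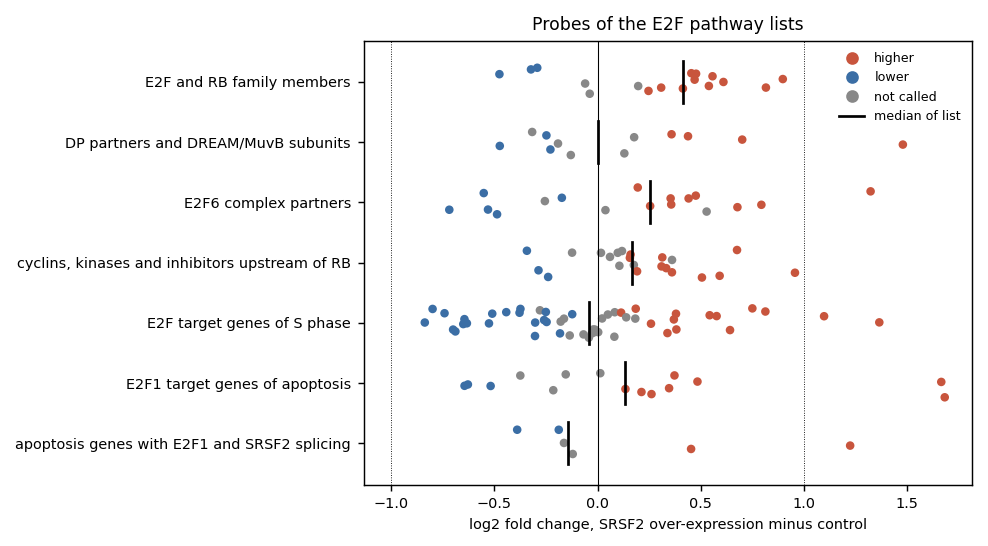
Log2 fold change (horizontal axis, SRSF2 over-expression minus control) of every kept probe of the E2F and RB family and of 6 related gene lists, colored by call, with a bar at each list's median and dotted lines at a 2-fold change. The family's median is 0.41 and that of the S-phase targets is -0.04, and probes of BCL2L11, SKP2, MAX, CASP8, UNG and the LIN54 probe (well above background on 2 of 6 control arrays) lie past 2-fold.

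The genes whose values followed E2F1 most closely over the 12 arrays were SPRR1B, CHKB, BAIAP2, VIPAS39 and KDSR, with Pearson's r of 0.993 to 0.994 across arrays that share the difference between conditions. Each of them was lower on the SRSF2-labelled arrays, with log2 fold changes from -1.24 (VIPAS39) to -0.53 (SPRR1B).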

How the data were processed

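RNA from 12 arrays (6 control, 6 SRSF2 over-expression) was hybridized as Cy3-labelled cRNA. The deposited scanner files hold one-color intensity values for 43376 gene spots, which the authors extracted with Feature Extraction 10.7.3.1 (version per the file headers), background-subtracted and not normalized between arrays. A deposited table of log2 values, which the authors made for 24362 probes, was used as an alternative and matched these values with a lowest array correlation of 0.999.

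The processed intensity was converted to log2, outlier spots were treated as missing, spots of a probe were averaged, and the 75th percentile of each array was subtracted. Probes missing on more than 25% of arrays, or well above background on fewer than 5 of 6 arrays in both conditions, were left out. Conditions were compared with limma 3.58.1 in R 4.3.3 (lmFit and eBayes, no covariate), with Benjamini-Hochberg adjustment over the 24330 probes kept, and the other steps used Python 3.11.15. Probes were named from RefSeq accessions: 25868 probes carried one and 23958 were named. The number of arrays limits the precision.

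The members and lists were chosen with earlier results of these data known. The genes named outside the family were the probes called with at least a 2-fold change plus the 3 highest and 3 lowest calls of each list. 1 gene of the apoptosis list is not reported here and was left out of that list's counts. Pairs of probes were compared by their within-array difference in limma; the pairs of different members were added after the values were seen. Scripts were tested on simulated data. Arrays with the same replicate number deviated together (r from 0.28 to 0.64), as did arrays of the same slide with other numbers (0.33 to 0.65); between slides r was -0.48 to -0.05. The replicate numbers were therefore taken to pair arrays through their slide. Alternatives covered scaling, background correction, the probe filter, the slide and replicate blocks, and left-out arrays and slides.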

Additional observations from a re-analysis of the deposited data

Results flagged for a closer look

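Each of the 17 probes was examined in both conditions, 34 groups of 6 arrays in all, for an array far from the other 5 of its group; chance marks about 1 in 20 groups. The gap to the nearest array, relative to the range of the group, passed Dixon's limit for 6 arrays in 4 groups. On E2F6 A_32_P12610, control replicate 2 was the highest of its group at 0.19, with the next at -0.09. On E2F6 A_32_P27271, SRSF2 over-expression replicate 2 was the lowest at 1.53, with the next at 1.65. On the dim RBL1 probe A_24_P276102, control replicate 3 was the highest at -3.56, with the next at -4.48, and SRSF2 over-expression replicate 4 was the lowest at -4.33, with the next at -3.98. Without control replicate 3 the log2 fold change of that RBL1 probe was 0.63, and without SRSF2 over-expression replicate 4 it was 0.53. Both E2F6 probes were called in all 29 alternative settings.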

How the results depend on the processing

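Of the 14 called probes, 7 passed the threshold in all 29 alternative settings: the bright E2F2 probe, the 4 E2F6 probes, E2F8 and the dim RB1 probe, whose log2 fold change ranged from 0.15 to 0.67. Spike-in scaling, which rests on 6 probes and raised the median of all probes from 0.011 to 0.20, left 8 member probes higher and 0 lower, and 9 target probes higher and 2 lower. Over all probes it called 6686, against 14042, and 1521 of its 1974 calls of at least 2-fold were higher, against 896 of 1702. At 2-fold, normexp called 331 and no background subtraction 798. Under spike-in scaling E2F4 A_23_P152218 (0.13) and RB1 A_23_P204850 (0.16) changed sign. The differences within an array do not depend on this scaling. The methods' t-test with Benjamini-Hochberg adjustment called 10 member probes higher and 3 lower, and 13697 probes in all. Requiring a 2-fold change left 0 member probes higher and 0 lower. RB1 A_23_P204850 also changed sign without slide 2 (0.024) and, at 0.0019, without SRSF2 over-expression replicate 3. The difference between the RBL1 probes was -0.0098 with normexp, and that between E2F6 A_32_P230720 and A_23_P170774 was -0.0014 without slide 2, -0.035 without slide 3 and -0.0025 without control replicate 6. Leaving out each array in turn, a choice made after seeing the data, gave -0.063 to 0.0019 for that RB1 probe, -0.0025 to 0.078 for that E2F6 pair, 10 to 11 member probes higher, 3 lower, and 12 to 15 target probes higher and 18 to 22 lower. Over all probes these fits called 13254 to 14318. With the replicate block, a paired fit, 11 member probes were higher and 3 lower, 16 target probes were higher and 21 lower, and no member call changed. Over all probes the paired fit called 15997. With the 2 arrays of a condition on each slide averaged into 1 value, 8 member probes were higher and 3 lower, and 11 target probes were higher and 14 lower. Over all probes this averaging called 9493. The dim E2F2, RB1 and RBL1 probes, 3 of the 17, missed the background limit on some array. The cause of these shifts was not tested.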
